A study of Mus musculus with 40 samples.

Results

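The surfactant and lamellar body genes followed here are Sftpa1, Sftpb, Sftpc, Sftpd, Abca3, Lamp3, Slc34a2, Napsa and Lpcat1. They were chosen by symbol, and each of the 9 was found in all 5 deposited tables, which share 55260 gene symbols. The values are bulk RNA-seq abundances in TPM, a share of all transcripts that is already divided by transcript length, from mouse branching lung organoids and embryonic lung tips. The labels name no mouse strain, genotype or transgene, and the replicates are not stated to come from separate animals or cultures, so a p-value here reflects the spread between libraries, which may be technical.

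The 40 libraries fall into 5 sets. One set holds 10 organoids grown from E9.5, E10.5, E11.5, E13.5 or E14 lung for 11 to 32 days (1 library per combination of start stage and day) and 4 lung epithelial tips (1 at each day of gestation from E10.5 to E13.5). A second set, labelled LO, holds organoids at culture days 8, 11 and 18 and a day 11 organoid with DCI, each n = 1. The 2C set holds 2C+F10, 2C+MTG, 2C+VC, an ALL library without a replicate number, and 2C, each n = 1. The factor set holds the groups ALL-FGF10, ALL-MTG, ALL-VC and ALL, with n = 2 each. The last set holds pieces of cut organoids, 4 quarter-pieces (up-half-left, up-half-right, down-half-left and down-half-right) and 4 half-pieces (up-half, down-half, left-half and right-half), and 1 intact organoid. The labels do not define ALL, MTG, VC, 2C, F10, DCI or LO. Reading a minus sign as the omission of a factor and a plus sign as its addition is an assumption. So is reading LO_day11_DCI as taken at culture day 11.

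Pulmonary surfactant is a film of phospholipid and protein that lowers surface tension at the air-liquid interface of the alveolus. Alveolar type 2 (AT2) cells make it, pack it into lamellar bodies, which are lysosome-related organelles, and secrete it by exocytosis. Sftpb and Sftpc encode the small hydrophobic surfactant proteins B and C, made as larger precursors that are cut on the way to the lamellar body. Sftpa1 and Sftpd encode surfactant proteins A and D, collectins that bind microbes. Abca3 encodes the lipid transporter of the lamellar body membrane, and Lamp3 (DC-LAMP) another lamellar body membrane protein. Napsa encodes napsin A, an aspartic protease that acts on the precursors of surfactant proteins B and C. Lpcat1 encodes an acyltransferase that makes dipalmitoyl phosphatidylcholine, the main surfactant lipid, and Slc34a2 the sodium-phosphate cotransporter of the AT2 surface. Sftpc is switched on in the distal lung epithelium well before birth, whereas the full set marks mature AT2 cells.

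Sequencing depth was unknown, because TPM keeps none, and no count-based precision can be given. Between 13036 and 14418 genes reached 1 TPM in a library, and mitochondrial genes took 6.54 to 15.2% of TPM. None of the 780 pairs of libraries was identical. All 5 general lung epithelium markers (Epcam, Cdh1, Krt8, Krt18 and Nkx2-1) were at 1 TPM or more in every library, with summed levels of 1318 to 1678 TPM in the organoids of the stage set and 1245 to 1536 TPM in tips. In such bulk samples, fewer AT2 cells and less of a transcript per AT2 cell cannot be told apart.

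By the GENCODE M21 annotation of GRCm38 (the build named mm10 in the submitters' processing notes), Sftpa1 and Sftpd lie close together on chromosome 14, at chr14:41131782-41136452 on the plus strand and chr14:41172214-41185149 on the minus strand. Sftpc lies on the same chromosome at chr14:70520949-70524081, minus strand. Sftpb lies at chr6:72304610-72314371 on the plus strand, and Lamp3 at chr16:19653378-19706375 on the minus strand. The other 4 genes are on plus strands: Abca3 at chr17:24351950-24410201, Slc34a2 at chr5:53038081-53071664, Napsa at chr7:44572380-44586862 and Lpcat1 at chr13:73467197-73516422. Abca3 overlaps D330041H03Rik on the other strand, listed at up to 76.8 TPM, and Slc34a2 overlaps the antisense gene Gm17182, listed at up to 10.51 TPM. Napsa overlaps Gm15396, listed at up to 1.78 TPM. Whether counting used strand is not given in the sources used here, so reads of these pairs may have been shared between partners.

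The RefSeq promoter table (GRCm38.p6) held 6 of the 9 genes: Sftpa1, Sftpb, Abca3, Lamp3, Slc34a2 and Lpcat1. In the 250 bases before each RefSeq start site, both strands were searched for short forms of the sites of factors known from AT2 cells. The 4 windows with a match are shown, 5′ to 3′ on the gene's strand, because they show how little the windows share. Capitals mark CTCAAG (a form of the NKX2-1 site) in Sftpb and Sftpa1, TTGCNNAA (C/EBP) in Slc34a2 and TGTTTAC (FOXA) in Lamp3. The Slc34a2 window lies inside the GENCODE gene, since the RefSeq start is downstream of its first base.
Sftpb, chr6:72304360-72304609, plus strand: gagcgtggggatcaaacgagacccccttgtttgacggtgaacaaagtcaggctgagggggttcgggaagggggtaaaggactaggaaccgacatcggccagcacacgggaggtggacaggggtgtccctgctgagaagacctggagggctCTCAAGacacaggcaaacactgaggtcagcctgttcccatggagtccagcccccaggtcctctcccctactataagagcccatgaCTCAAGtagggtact
Sftpa1, chr14:41131538-41131787, plus strand: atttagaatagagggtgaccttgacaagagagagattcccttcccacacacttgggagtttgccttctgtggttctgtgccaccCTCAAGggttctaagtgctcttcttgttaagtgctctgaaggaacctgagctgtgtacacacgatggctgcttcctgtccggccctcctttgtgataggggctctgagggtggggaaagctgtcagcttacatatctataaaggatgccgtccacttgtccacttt
Slc34a2, chr5:53049103-53049352, plus strand: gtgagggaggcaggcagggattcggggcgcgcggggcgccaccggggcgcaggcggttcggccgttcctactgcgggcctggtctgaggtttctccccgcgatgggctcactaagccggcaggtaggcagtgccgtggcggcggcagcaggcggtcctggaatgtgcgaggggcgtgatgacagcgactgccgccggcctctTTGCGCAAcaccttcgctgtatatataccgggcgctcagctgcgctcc
Lamp3, chr16:19706366-19706615, minus strand: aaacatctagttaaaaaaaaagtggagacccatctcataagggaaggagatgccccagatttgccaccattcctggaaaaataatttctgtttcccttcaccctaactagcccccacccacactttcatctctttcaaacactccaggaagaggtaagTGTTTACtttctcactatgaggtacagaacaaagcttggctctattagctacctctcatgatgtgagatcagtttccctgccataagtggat
The letters CTCAAG stood in 2 of the 6 windows, against 13.3% of all 32851 promoters of the table cut to the same length, with first bases at -100 and -15 from the start site in Sftpb and at -166 in Sftpa1. The C/EBP letters stood in 1 of 6 windows, at -48 in Slc34a2 and readable on both strands, against 9.56% of all promoters. The FOXA letters stood in 1 of 6, at -92 in Lamp3, against 3.17%. The AP-1 letters TGAGTCA stood in 1 of 6, on the minus strand at -18 in Sftpb, where they overlap the second CTCAAG, against 4.46%. The cyclic AMP response letters TGACGTC and the glucocorticoid response letters ACANNNTGT stood in none of the 6, against 2.78% and 5.84% of all promoters. These matches describe letters in a window and say nothing of binding.

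The embryonic tips had the lowest level of the whole gene set in the series. Together the 9 genes held 0.0211%, 0.0241%, 0.0328% and 0.0398% of TPM in the tips, in order of stage from E10.5 to E13.5. Sftpd and Napsa were listed at 0 in all 4 tips. Slc34a2 was listed at 0.08 TPM in the E10.5 tip and at 0 in the other 3, and Lamp3 at 0.30, 0.41, 0.51 and 1.28 TPM in order of stage. The other 5 genes were already present: Sftpb at 25.9 to 48.0 TPM, Sftpa1 at 10.1 to 22.9 TPM, Abca3 at 24.9 to 38.6 TPM and Lpcat1 at 71.6 to 104 TPM.

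Sftpc was the member that differed most between tip stages. It was at 37.0 TPM at E10.5, 39.3 TPM at E11.5, 191 TPM at E12.5 and 210.4 TPM at E13.5, so the later pair of stages stood above the earlier pair. Over the 3 days from E10.5 to E13.5 its fitted slope was 2.90 ± 0.55 on the log2(TPM + 1) scale (± standard error of the fit, here and below; limma, adjusted p = 0.037 over 16779 genes, Benjamini-Hochberg). This was the 1 member called for tip stage at adjusted p under 0.05, where 0.733% of all genes were called and 0.203% were called higher. The 4 tips were fitted together with the 10 organoids, so the error and adjusted p draw on the spread of organoids as well as of tips. With 1 library a stage, the call was not firm. Its adjusted p was 0.0694 with a pseudocount of 0.1 TPM, 0.0555 without a filter on low values and 0.0625 after rescaling the libraries by median ratios. Leaving out 1 of the 14 libraries gave 0.0174 to 0.312, under 0.05 in 2 cases, while the slope itself stayed between 2.62 and 3.58. The other 8 members had adjusted p of at least 0.764.

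All 9 genes were present in every organoid of the stage set. The lowest values were 10.9 TPM for Napsa and 12.8 TPM for Sftpd. The highest was 124839 TPM of Sftpc, which stood far above the rest. The 9 genes summed to 5.50% of TPM in the organoid lowest for them (E9.5 lung, 13 days) and 13.7% in the highest (E10.5 lung, 18 days), against at most 0.0398% in a tip. Sftpc had the highest TPM of any gene in 9 of the 10 organoids and ranked 686 to 4224 in the tips. Of the 36 libraries outside the tips, Sftpc was first in 31 and never lower than rank 4. Within the gene set its share was 89.3 to 95.7% of the summed TPM in the 10 organoids of the stage set and 16.3 to 58.1% in tips.

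**Figure D1:**
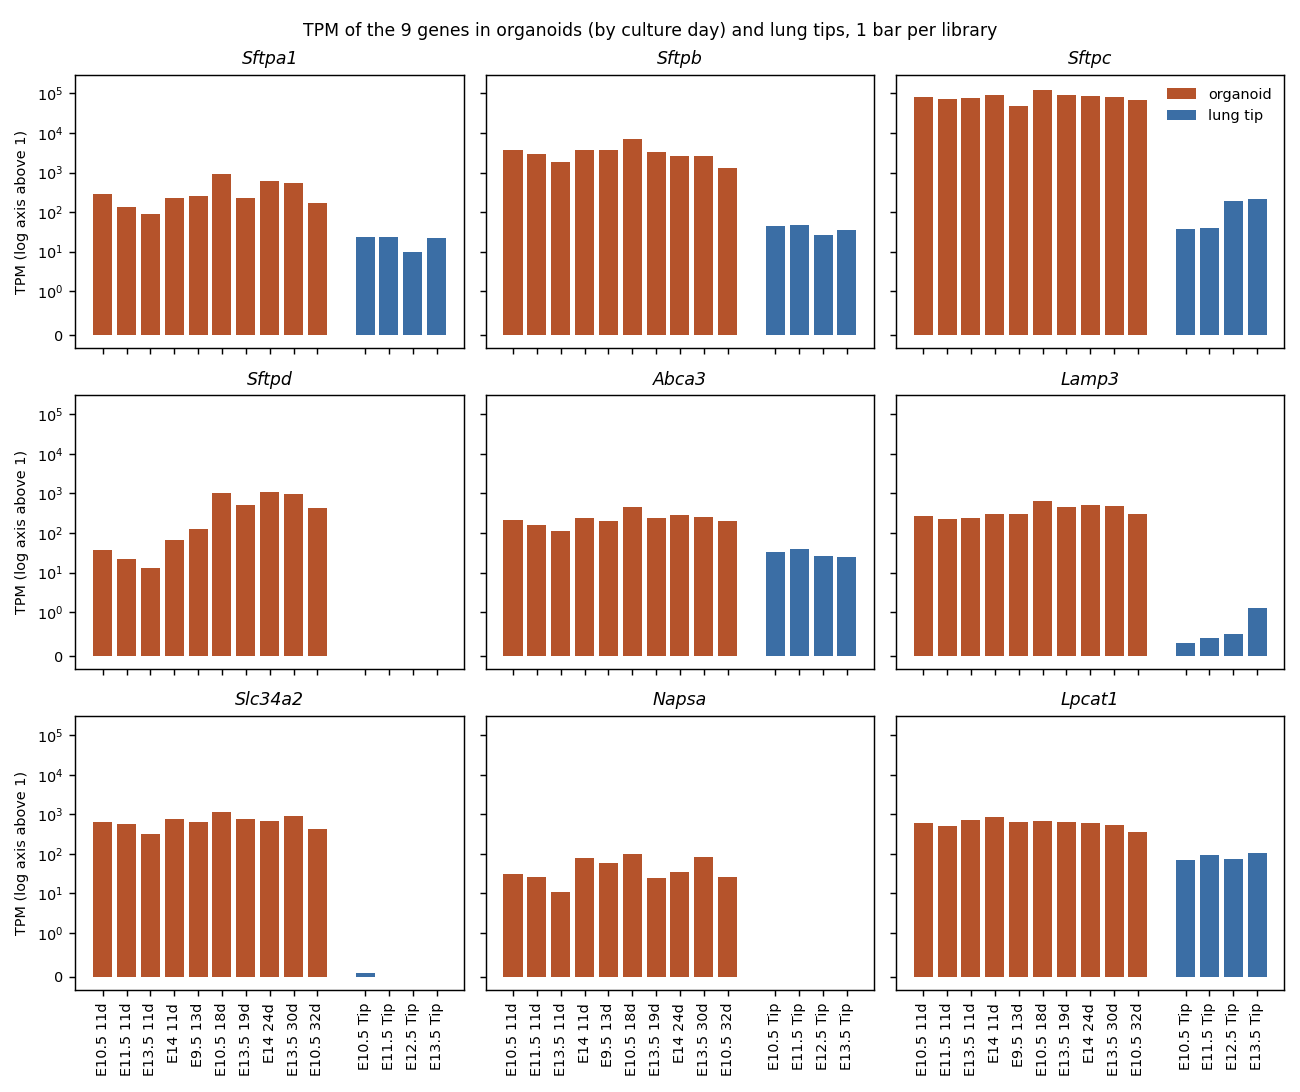
TPM of each of the 9 genes in 10 organoids (left bars, ordered by days in culture and labelled by start stage and day) and in 4 lung tips (right bars, by stage), 1 bar per library, on an axis that is linear below 1 TPM and logarithmic above it. Every organoid bar stands above every tip bar of the same gene, and Sftpd and Napsa have no tip bar because they were listed at 0.

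For each of the 9 genes the 10 organoids of the stage set did not overlap the tips. All 9 were called higher in organoids (limma on log2(TPM + 1), 10 organoids against 4 tips, adjusted p under 0.05). The share of all genes without overlap was not counted, here or in the comparisons below. The background of that comparison is wide: 61.9% of all 16779 genes were called, 21.7% higher and 40.2% lower. Rescaling by median ratios moved the median change of all genes by 0.26, and 49.7% of the calls were then higher, against 35.0% as deposited. The median change of the 9 members was 6.27, against -0.20 over all genes tested. The libraries of a kind differ in stage and day and are not plain replicates.

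Of the surfactant proteins, Sftpc had 49076 TPM in the lowest organoid, a median of 79518 and 124839 in the highest, against 37.0, 39.3, 191 and 210.4 TPM in tips. Its change was 9.81 ± 0.40 (adjusted p = 5.52e-11). Sftpb had 1306 TPM in the lowest organoid, a median of 3109 and 7035 in the highest, against 45.6, 48.0, 25.9 and 35.3 TPM in tips of E10.5 to E13.5, a change of 6.27 ± 0.32 (adjusted p = 4.92e-10). The lowest organoid thus lay above the highest tip for both hydrophobic proteins. Sftpa1 had 88.3 TPM in the lowest organoid, a median of 247 and 908 in the highest, against 22.9, 22.8, 10.1 and 21.6 TPM in tips, a change of 3.81 ± 0.49 (adjusted p = 6.03e-06). Sftpd ran over the widest range among organoids, with 12.8 TPM in the lowest, a median of 285 and 1072 in the highest, and is given no fold because the tips were listed at 0 (adjusted p = 2.49e-05).

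Of the lamellar body and lipid genes, Slc34a2 had 314.9 TPM in the lowest organoid, a median of 661 and 1121 in the highest. Its change of 9.31 ± 0.24 (adjusted p = 4.45e-13) is set by the pseudocount, since 3 of the 4 tips were at 0, and was 12.45 with a pseudocount of 0.1 TPM. Lamp3 had 223 TPM in the lowest organoid, a median of 307 and 647 in the highest, against 0.30 to 1.28 TPM in tips. Its change of 7.80 ± 0.26 (adjusted p = 6.66e-12) also depends on the pseudocount, since the tips lay near or under 1 TPM. Abca3 and Lpcat1, the members already highest in tips relative to their organoid level, changed least. Abca3 had 109.6 TPM in the lowest organoid, a median of 221 and 444 in the highest, against 33.1, 38.6, 26.2 and 24.9 TPM in tips, a change of 2.83 ± 0.25 (adjusted p = 1.47e-07). Lpcat1 had 359 TPM in the lowest organoid, a median of 613 and 849 in the highest, against 71.6, 91.9, 74.7 and 104 TPM in tips, a change of 2.81 ± 0.17 (adjusted p = 2.58e-09). Napsa, the least abundant member, had 10.9 TPM in the lowest organoid, a median of 33.1 and 96.9 in the highest, with no fold against tips at 0 (adjusted p = 7.11e-08).

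Genes that serve surfactant without being members also differed, in both directions. Of 18 genes of surfactant phospholipid synthesis, 13 were called higher in organoids and 2 lower, with a median change of 1.21. The largest were Scd1, a stearoyl-CoA desaturase (6.36), Cds1, which makes CDP-diacylglycerol (2.77), Insig1, which restrains SREBP processing (2.68), and Chka, a choline kinase (1.83). Of 16 genes of precursor processing, lamellar body trafficking, secretion and clearance, 10 were called higher and 2 lower. Ctsh, a protease of the surfactant protein B precursor, rose by 7.08, Adgrf5, a receptor that limits the surfactant pool, by 4.92, and Lrrk2, a kinase of lysosome-related organelles, by 4.48. Of 13 lung epithelial transcription regulators, 7 were called higher and 5 lower. Tfcp2l1 (2.91), Cebpa (2.58) and Klf5 (2.33) were higher and Foxp2 (-1.86) was lower. Nkx2-1, the lineage regulator of lung epithelium, was not among them.

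Organoids and tips also differed in the cells they held. The 5 erythroid markers summed to 0 to 0.29 TPM in organoids and 1946 to 9772 TPM in tips, where all 5 were at 1 TPM or more. The 8 mesenchyme markers summed to 4.09 to 321 TPM in organoids and 120 to 225 TPM in tips, and the lung mesenchyme factor Tbx4 was listed at 0 in 5 organoids. The 8 AT1 markers, of the flat alveolar cell type, summed to 665 to 1994 TPM in organoids and 66.2 to 126 TPM in tips, and 7 of them were called higher in organoids and 1, Pdpn, lower. Their part in the differences above was not tested.

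Within organoids, Sftpd was the member that followed time in culture. Ordered by day, Sftpd was at 38.0, 22.0, 12.8 and 64.9 TPM at day 11 (E10.5, E11.5, E13.5 and E14 lung), 129 TPM at day 13 (E9.5), 1041 at day 18 (E10.5), 513 at day 19 (E13.5), 1072 at day 24 (E14), 963 at day 30 (E13.5) and 440.25 TPM at day 32 (E10.5). The 5 libraries of days 11 to 13 did not overlap the 5 of days 18 to 32. Over the 21 days covered, with start stage in the same fit, the slope was 4.87 ± 1.11 on the log2 scale (limma, adjusted p = 0.0185). It was past the threshold with every alternative setting and every library left out, at 4.12 to 7.13. Among all genes 9.64% were called for culture day, 2.97% higher and 6.67% lower, so a single higher call among 9 genes is not far from the background. After rescaling by median ratios, which moved the median of all genes by 0.16, 59.4% of the calls were higher, against 30.8% as deposited.

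The other collectin, Sftpa1, did not pass with culture day (adjusted p = 0.429). It was at 88.3 to 280.2 TPM at days 11 to 13 and 166 to 908 TPM at days 18 to 32. The ratio of Sftpd to Sftpa1 TPM was therefore 0.136 to 0.494 at days 11 to 13 and 1.15 to 2.65 at days 18 to 32, with no overlap. The points of both collectins by day show that the level was not a steady climb: for E10.5 lung, Sftpd and Sftpa1 were at 38.0 and 280.2 TPM at day 11, at 1041 and 908 TPM at day 18 and at 440.25 and 166 TPM at day 32.

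**Figure D2:**
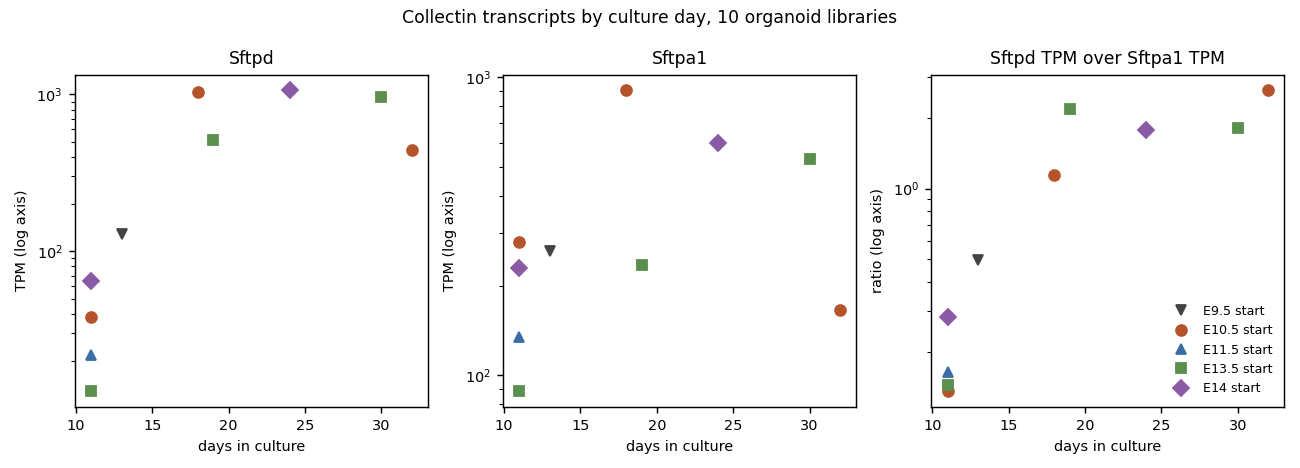
TPM of Sftpd and of Sftpa1, and the ratio of Sftpd to Sftpa1, against days in culture in 10 organoid libraries on log axes, with 1 marker per library shaped and coloured by start stage. Sftpd and the ratio separate days 11 to 13 from days 18 to 32, whereas Sftpa1 overlaps between them.

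Lpcat1 was called lower with culture day, but barely. Its levels were 520 to 849 TPM at days 11 to 13 and 359 to 666 TPM at days 18 to 32, which overlap. The slope over 21 days was -0.60 ± 0.17 (adjusted p = 0.0453). It was -0.40 after rescaling (adjusted p = 0.216), and -0.38 without the organoid of day 32 (adjusted p = 0.432). It passed in 3 of the 14 fits with 1 library left out. The 7 remaining members had adjusted p of 0.247 to 0.994 for culture day. Sftpc itself was at 49076 to 92436 TPM at days 11 to 13 and 67018 to 124839 TPM at days 18 to 32. The E10.5 organoid of day 18 had the highest level of 7 of the 9 members among the 10 organoids, all but Sftpd and Lpcat1. No member was called for start stage over its range of 4.5 days, where limma called 9 of all genes (0.0536%) and 1250 had an unadjusted p under 0.05, Lpcat1 alone among the members.

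Other genes of the surfactant lists moved with culture day in both directions. Among the 18 lipid synthesis genes, 3 were called higher, Fasn, the fatty acid synthase (0.90), Chpt1, a cholinephosphotransferase (0.89), and Insig1 (0.80), and 2 were called lower, Cds1 (-1.83) and Chka (-0.53). P2ry2, the purinergic receptor through which ATP triggers surfactant secretion, rose by 3.17 and Nedd4, a ubiquitin ligase that sorts the surfactant protein C precursor, fell by 0.49. Of 12 other AT2 markers, Lyz1 (5.41), Cd74 (4.01) and Il33 (2.58) were higher and Hc (-2.49) was lower.

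The LO series gave the same genes at earlier days, in single libraries that allow no test. At day 8 Sftpc was at 12436 TPM and the gene set at 1.29% of TPM, but Sftpd, Slc34a2, Lamp3 and Napsa were at 1.07, 1.38, 1.35 and 1.02 TPM. At day 11 Sftpc was at 36975 TPM, Sftpb at 969.7 TPM against 239.6 at day 8, and Slc34a2, Napsa and Lamp3 had reached 17.6, 17.0 and 10.2 TPM, while Sftpd was still at 1.89 TPM. At day 18 Sftpc was at 109318 TPM, Sftpb at 7141, Slc34a2 at 1135, Sftpd at 1024, Sftpa1 at 982, Lpcat1 at 699.7, Lamp3 at 687, Abca3 at 496 and Napsa at 108 TPM. The gene set then held 12.2% of TPM.

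The order in which genes became abundant differed. Day 11 exceeded day 8 by a log2(TPM + 1) difference of at least 1 for 7 of 9 members, against 5.25% of all genes past that size and 2.38% higher. The largest were Napsa (3.16) and Slc34a2 (2.96), and the exceptions were Sftpd, at 1.89 against 1.07 TPM, and Lpcat1, at 141 against 199.6 TPM. Day 18 exceeded day 11 by at least 1 for all 9 (14.1% of all genes, 6.32% higher), from 1.56 for Sftpc to 8.47 for Sftpd, which was at 1024 against 1.89 TPM. Day 18 exceeded day 8 likewise for all 9 (19.9%, 7.44% higher). Markers of other cells moved along the same days: the 8 mesenchyme markers summed to 15.4 TPM at day 8, 71.3 at day 11 and 4.06 at day 18, where Col1a1, Dcn, Col3a1 and Col1a2 were higher at day 11 than at day 8 and lower at day 18 than at day 11 by that size. The 8 AT1 markers summed to 372, 687 and 1425 TPM at these days, and all 8 were higher at day 18 than at day 8. Their part in the differences between days was not tested. The day 11 level of Sftpd here, 1.89 TPM, lay below the 12.8 to 64.9 TPM of the 4 day 11 organoids of the stage set. These stand in another table, and the labels do not give the start stage of LO.

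**Figure D3:**
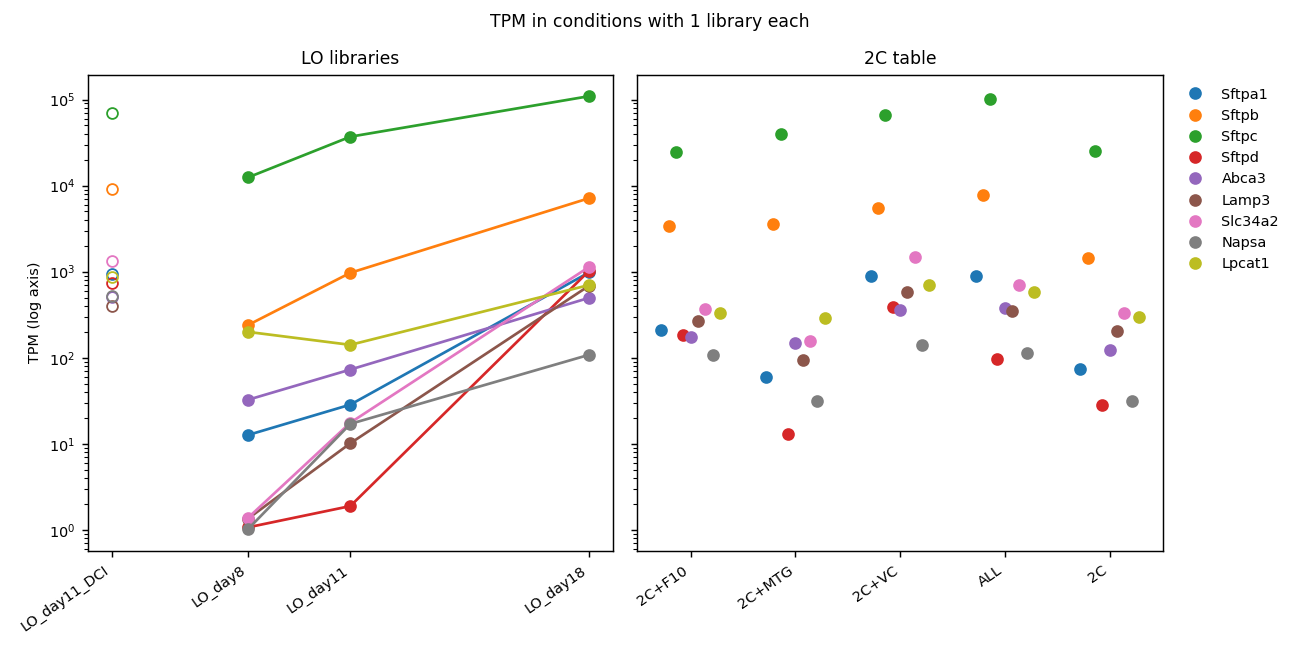
TPM on a log axis in conditions with 1 library each, with a colour per gene. The left panel shows LO at day 11 with DCI (open circles) and LO at days 8, 11 and 18 (joined), and the right panel shows 2C+F10, 2C+MTG, 2C+VC, the ALL library without a replicate number, and 2C. With DCI all 9 genes lie at 404 TPM or more, while without DCI at day 11 Sftpd, Lamp3, Napsa and Slc34a2 lie at 17.6 TPM or less.

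With DCI, 8 of the 9 members were higher by at least 1 than at day 11 without it, where 24.2% of all genes passed that size, 11.2% higher. The label does not say whether the DCI organoid was taken at day 11 or kept longer in DCI. If it was kept longer, time in culture and DCI cannot be told apart. Sftpd was at 737 TPM with DCI and 1.89 TPM without, Slc34a2 at 1336 and 17.6 TPM, Lamp3 at 404 and 10.2 TPM, and Sftpa1 at 942 and 28.5 TPM. The differences in log2(TPM + 1) were 8.00, 6.17, 5.18 and 5.00. Napsa was at 525 TPM with DCI and 17.0 TPM without, the highest Napsa level of all 40 libraries. Sftpb was at 9247 and 969.7 TPM, Abca3 at 504 and 72.9 TPM and Lpcat1 at 863 and 141 TPM. Sftpc differed least, at 70632 TPM with DCI and 36975 TPM without (0.93, and past 1 after rescaling), so its share of the gene set was 82.9% with DCI and 96.7% without.

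Genes beyond the set differed with DCI as well. In lipid synthesis 10 of 18 were higher and none lower by that size, and in processing and trafficking 7 of 16 were higher and none lower. Ctsh was at 6502 TPM with DCI and 253 TPM without. The other 2 lists moved in both directions by that size. Of 13 transcription regulators, 4 were higher (Klf5, Tfcp2l1, Cebpa and Cebpd) and 2 lower (Etv5 and Foxp2). Cebpa, a C/EBP factor of AT2 cells, was at 242 and 29.9 TPM. Of 12 other AT2 markers, 6 were higher and 2, Egfl6 and Cd74, were lower. The 8 AT1 markers were all higher, with a sum of 5557 TPM with DCI and 687 TPM without. The club cell marker Scgb1a1 was at 413 TPM with DCI and listed at 0 without, and the 5 distal tip markers, of the embryonic progenitor state, were all lower, with a sum of 421 TPM with DCI and 1469 TPM without. The 8 mesenchyme markers summed to 72.6 TPM with DCI and 71.3 TPM without, but not of the same genes: Pdgfra (14.7 against 0.03 TPM) and Tbx4 (5.61 against 0.20 TPM) were higher with DCI and Dcn (0.66 against 34.4 TPM) was lower. The part of other cell types in the DCI differences was not tested.

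Among the 2C libraries, again 1 each and without a test, VC went with the whole gene set. All 9 members were at least 1 higher on the log2 scale in 2C+VC than in 2C, where 9.61% of all genes passed that size, 5.81% higher. Sftpd was at 386 TPM in 2C+VC and 28.5 TPM in 2C (3.72), and Sftpa1 at 902 and 74.0 TPM (3.59). Slc34a2 was at 1470 and 327 TPM, Napsa at 139 and 31.6 TPM, Sftpb at 5512 and 1430 TPM and Sftpc at 66781 and 24913 TPM. The smallest differences were 1.24 for Lpcat1, 1.51 for Lamp3 and 1.55 for Abca3. Club cell markers moved in the same library: the 4 summed to 4628 TPM in 2C+VC and 144 TPM in 2C, with Scgb1a1 at 4156 and 19.0 TPM, and 6 of 8 AT1, 2 of 4 ciliated and 1 of 5 distal tip markers were at least 1 higher. Their part was not tested.

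F10 and MTG went with part of the set. In 2C+F10, 4 members were at least 1 higher than in 2C (5.90% of all genes, 3.08% higher): Sftpd at 182 against 28.5 TPM, Napsa at 108 against 31.6 TPM, Sftpa1 at 208 against 74.0 TPM and Sftpb at 3422 against 1430 TPM. Sftpc was at 24321 TPM in 2C+F10 and 24913 TPM in 2C, and Abca3, Lamp3, Slc34a2 and Lpcat1 differed by 0.49, 0.38, 0.17 and 0.13. All 8 mesenchyme markers were at 1 TPM or more in 2C+F10, with a sum of 106 TPM against 4.18 TPM in 2C. In 2C+F10, 3 of 4 club markers (sum 746 against 144 TPM), 2 of 4 ciliated markers (151 against 72.9 TPM) and 3 of 8 AT1 markers (1961 against 1225 TPM) were also at least 1 higher. Their part was not tested for F10. In 2C+MTG, Sftpb alone was at least 1 higher, at 3618 against 1430 TPM, and Sftpd, Lamp3 and Slc34a2 were at least 1 lower, at 12.9 against 28.5, 94.0 against 204 and 155 against 327 TPM (7.52% of all genes, 2.59% higher and 4.93% lower). These 3 differences, of -1.07 to -1.11, fell short of 1 after rescaling. The other 5 differed by less, with 0.69 for Sftpc, 0.26 for Abca3, 0.01 for Napsa, -0.03 for Lpcat1 and -0.31 for Sftpa1. In the same library 3 of 4 club markers (sum 3.77 against 144 TPM), 3 of 4 ciliated markers (56.8 against 72.9 TPM) and 2 of 8 AT1 markers were at least 1 lower than in 2C, and 3 of 5 distal tip markers (951 against 363 TPM) were higher. The ALL library of that table had 7 members at least 1 higher than 2C (12.3% of all genes, 4.89% higher), and 9 after rescaling. The differences were 3.56 for Sftpa1, 2.43 for Sftpb, 2.03 for Sftpc, 1.81 for Napsa, 1.74 for Sftpd, 1.59 for Abca3 and 1.09 for Slc34a2. Lamp3 and Lpcat1, at 347 and 575 TPM against 204 and 299 TPM in 2C, differed by 0.76 and 0.94. In the ALL library 3 of 4 club markers (8.60 against 144 TPM), 3 of 4 ciliated markers and 1 of 8 AT1 markers were at least 1 lower than in 2C, while 4 of 5 distal tip markers (1113 against 363 TPM) and 4 of 8 AT1 markers (2404 against 1225 TPM) were higher. The part of these cell types in the member differences was not tested for MTG or ALL.

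In the replicated factor groups, no member was called against ALL. The share of all 14802 genes called was 1.83% for ALL-FGF10, 0.513% for ALL-MTG (0.378% lower) and 0.804% for ALL-VC (0.595% lower), by limma with 8 libraries in 1 fit. At an unadjusted p under 0.05 there were 2705, 1924 and 2533 genes, including 3, 6 and 4 members. Sftpc was at 90283 and 97052 TPM in ALL-FGF10, 80426 and 78632 in ALL-MTG, 58956 and 64469 in ALL-VC, and 53158 and 86843 TPM in ALL. The ALL libraries lay on both sides of ALL-MTG and ALL-VC, and ALL-FGF10 lay above both of them. Sftpb was at 4030 to 6238 TPM in the 6 omission libraries and 5759 and 6912 TPM in ALL.

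Several members were lower in ALL-MTG and ALL-VC than in ALL without reaching the threshold. Sftpa1 had 291 and 407 TPM in ALL-MTG, 257 and 666 in ALL-VC, and 1624 and 1464 TPM in ALL, with changes of -2.16 ± 0.39 (adjusted p = 0.0734) and -1.89 ± 0.39 (adjusted p = 0.0828). Sftpd had 217 and 607 TPM in ALL-MTG, 645 and 857 in ALL-VC, and 1319 and 1674 TPM in ALL (adjusted p = 0.105 and 0.286). Neither omission overlapped ALL for these collectins, but with 2 libraries a group and no count over all genes, little can be read from that. Napsa was at 31.5 and 59.98 TPM in ALL-VC and 148 and 280.03 TPM in ALL, a change of -2.20 ± 0.39 (adjusted p = 0.0579), and at 64.7 and 93.2 TPM in ALL-FGF10. Lamp3 had 366 and 477 TPM in ALL-MTG, against 811 and 692 TPM in ALL (adjusted p = 0.0889). Some of these calls turn on 1 library. Without replicate 2 of ALL-MTG, Sftpd and Lamp3 were called against ALL (-2.77 and -1.03, adjusted p = 0.00443 and 0.0362), without replicate 1 of ALL Napsa was called for ALL-VC (-2.66, adjusted p = 0.0297), and without replicate 2 of ALL-VC so was Sftpa1 (-2.58, adjusted p = 0.0287). Sftpa1 was also called for ALL-MTG without either replicate of ALL-VC, which enters only through the shared spread (-2.16, adjusted p = 0.0376 and 0.0379).

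The ALL library without a replicate number, from another table, had 886 TPM of Sftpa1, 97.3 of Sftpd, 113 of Napsa, 347 of Lamp3 and 694 of Slc34a2. For Sftpd that is under the 217 to 857 TPM of ALL-MTG and ALL-VC, and for Lamp3 under the 366 to 622 TPM of these groups. Values from the separate tables are set side by side here without a test.

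**Figure D4:**
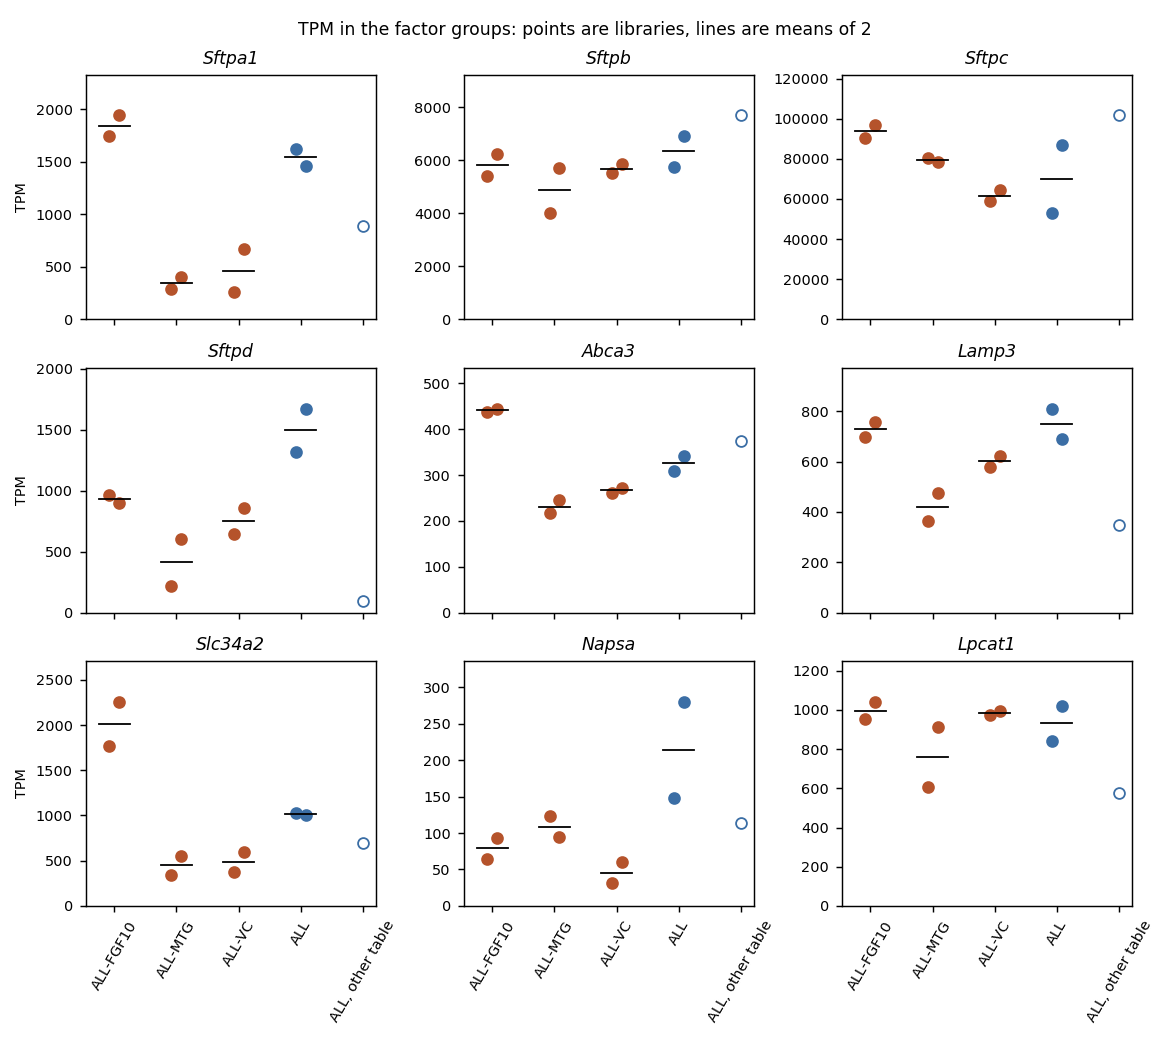
TPM of each gene in the 2 libraries (filled points, with their mean as a line) of ALL-FGF10, ALL-MTG, ALL-VC and ALL, and in the ALL library of the 2C table (open point). For Slc34a2, Abca3 and Sftpa1 both ALL-FGF10 points stand above all points of ALL-MTG and ALL-VC.

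ALL-FGF10 differed from both other omissions in Slc34a2, Abca3 and Sftpa1, and from ALL-MTG also in Lamp3. Slc34a2 had 1767 and 2255 TPM in ALL-FGF10, 342 and 552 in ALL-MTG, 374 and 598 in ALL-VC, and 1029 and 1004 TPM in ALL. Sftpa1 was at 1745 and 1942 TPM in ALL-FGF10, with the values of the other groups given above. Abca3 had 438 and 445 TPM in ALL-FGF10, 217 and 245 in ALL-MTG, 261 and 272 in ALL-VC, and 309 and 342 TPM in ALL. Both ALL-FGF10 libraries were above every ALL-MTG and ALL-VC library for these genes, and the ALL libraries lay between.

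Against ALL-MTG, 4 members were called higher in ALL-FGF10, where 3.52% of all genes were called, 1.78% higher. They were Slc34a2 (2.20 ± 0.29, adjusted p = 0.0102), Abca3 (0.93 ± 0.13, adjusted p = 0.0115), Sftpa1 (2.41 ± 0.39, adjusted p = 0.0212) and Lamp3 (0.80 ± 0.16, adjusted p = 0.0457), the last at 699.5 and 758 TPM against 366 and 477 TPM. Against ALL-VC, 3 members were called higher, where 3.82% of all genes were called, 1.94% higher: Slc34a2 (2.08 ± 0.29, adjusted p = 0.0112), Abca3 (0.73 ± 0.13, adjusted p = 0.025) and Sftpa1 (2.15 ± 0.39, adjusted p = 0.0303). These contrasts share the ALL-FGF10 libraries, and with either of them left out none of the 7 calls passed, though the changes kept their direction, at 0.72 to 2.49 (adjusted p = 0.0766 to 0.402). Sftpa1 and Lamp3 were not called against ALL-MTG without its replicate 1 (adjusted p = 0.0955 and 0.116), and none of the 3 was called against ALL-VC without that group's replicate 1 (adjusted p = 0.0687 to 0.18). Without replicate 2 of ALL-VC, Abca3 was not called (adjusted p = 0.122). Lamp3 was also lost without either replicate of ALL-VC (adjusted p = 0.0907 and 0.091), with a pseudocount of 0.1 TPM (0.0539), after rescaling (0.0593), without a filter (0.0942) and with only these 2 groups in the fit (0.0803). Sftpa1 was lost without a filter (adjusted p = 0.0686 and 0.0845), and Abca3 against ALL-VC after rescaling (adjusted p = 0.0529).

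No member was called between ALL-MTG and ALL-VC, where 0.547% of all genes were (1930 genes had an unadjusted p under 0.05). Lpcat1 was at 952 and 1041 TPM in ALL-FGF10, 606 and 911 in ALL-MTG, 976 and 995 in ALL-VC, and 840.2 and 1022 TPM in ALL, and was called in no contrast. Among genes near the set, Gpam, an acyltransferase of glycerolipid synthesis, exceeded its level in ALL-MTG (2.01, adjusted p = 0.00519) and ALL-VC (1.54, adjusted p = 0.0127) when FGF10 was left out, and so did Adgrf5 (1.48 and 2.02, adjusted p = 0.0286 and 0.00903). The AT2 markers Chil1 (-6.09), Lyz2 (-3.54), S100g (-2.57) and Cd74 (-1.73) were called lower in ALL-MTG than in ALL, 4 of 12. Between ALL-FGF10 and ALL-MTG, 5 of 12 were called higher, with Chil1 (6.60), S100g (3.23), Lyz2 (2.22) and Hc (1.63) the largest. The general epithelium markers Krt8 (-1.85), Krt18 (-1.85) and Epcam (-0.89) were called lower there, 3 of 5. In ALL-VC against ALL, Muc1 (-3.16) and Cd74 (-3.05) were called lower, 2 of 12, as was the AT1 marker Pdpn (-3.69). In ALL-FGF10 against ALL, Hc was called higher (1.64), 1 of 12, and the regulator Cebpb lower (-1.59). In ALL-FGF10 against ALL-VC, Muc1 (3.55), Hc (2.80) and Cd74 (1.92) were called higher, as were the AT1 markers Aqp5 (2.20) and Pdpn (2.18), and Krt8 was lower (-1.11). Between ALL-MTG and ALL-VC, Chil1 (-4.90) and S100g (-2.48) were called lower and Pdpn higher (2.96). The mesenchyme markers summed to 0.91 and 1.73 TPM in ALL-FGF10, 186 and 12.6 in ALL-MTG, 1.10 and 1.71 in ALL-VC, and 103 and 5.08 TPM in ALL. In replicate 1 of ALL-MTG, Dcn alone was at 168 TPM, and Col3a1 was listed at 0 in both. The part of other cells in these differences was not tested.

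All 9 genes were present in every cut piece, with 166 TPM of Napsa in the up-half as the lowest value. The 9 genes held 5.83 to 10.7% of TPM in the 4 quarter-pieces, 6.52 to 9.06% in the 4 half-pieces and 8.12% in the intact organoid. Limma called 0 of 15017 genes (0%) for quarter-pieces against half-pieces, up against down or left against right. At an unadjusted p under 0.05 there were 799, 663 and 463 genes, which is 5.32%, 4.41% and 3.08% of those tested, with 3, 4 and 0 members among them. With 1 library a piece, the spread around the fit stands in for replicate spread, and the labels do not say how many organoids were cut.

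For quarter-pieces against half-pieces, the 3 members under an unadjusted p of 0.05 were the collectins and Slc34a2. Sftpd was at 2174, 1871, 2576 and 2378 TPM in the quarter-pieces and 997, 1651, 1418 and 2239 TPM in the half-pieces, in the order named at the start, a change of 0.56 ± 0.20 (adjusted p = 0.869). Sftpa1 was at 2758, 1976, 4170.5 and 3290.0 TPM in the quarter-pieces and 1313, 2260.2, 1570.4 and 3169 TPM in the half-pieces, and Slc34a2 at 1043, 1331, 1834 and 1725 TPM in quarter-pieces and 897, 1143, 1073 and 1455 TPM in half-pieces. The 2 sizes overlapped for all 3. For up against down, the 4 members were Slc34a2 (-0.51 ± 0.17), Napsa, Sftpa1 (-0.71 ± 0.28) and Lpcat1 (-0.37 ± 0.15), all with adjusted p = 1.00. Napsa was at 178, 330 and 166 TPM in up-half-left, up-half-right and up-half and 407, 316 and 332 TPM in down-half-left, down-half-right and down-half, a change of -0.71 ± 0.26. Lpcat1 was at 945 to 1171 TPM in the 3 up pieces and 1183 to 1530.0 TPM in the 3 down pieces, with no overlap. Sftpc was at 44366 to 86049 TPM in quarter-pieces, 48769 to 78799 TPM in half-pieces and 69927 TPM in the intact organoid. Sftpb was at 5383 to 9748 TPM in quarter-pieces and 5647 to 6592 TPM in half-pieces. Abca3 and Lamp3 had the narrowest range among pieces as a ratio of highest to lowest, at 331 to 473 and 609 to 958 TPM.

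**Figure D5:**
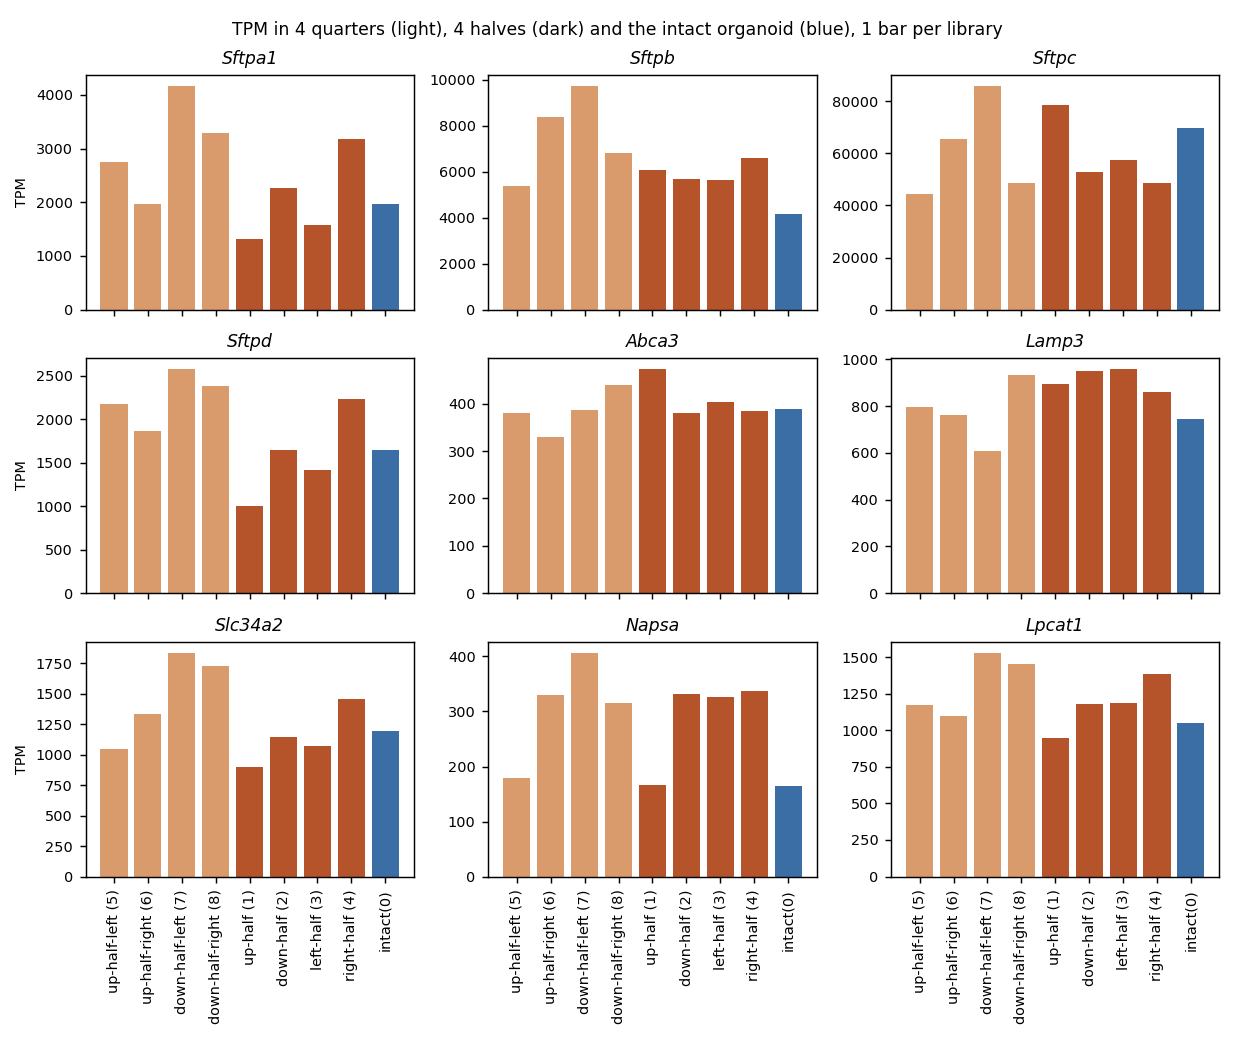
TPM of each gene in 4 quarter-pieces (light bars), 4 half-pieces (dark bars) and the intact organoid (blue bar), 1 bar per library with the axis from 0. The up-half stands low for Napsa, at 166 TPM against 326 to 337 TPM in the other 3 half-pieces, and no gene separates quarter-pieces from half-pieces.

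Across all 40 libraries the members rose and fell together, and less closely so without the tips, Sftpc least. The 36 pairs of members had Pearson correlations of log2(TPM + 1) of 0.66 to 0.99, with a median of 0.91, and of 0.37 to 0.96 with a median of 0.83 over the 36 libraries without tips. Without tips the pairs that include Sftpc were the lowest, from 0.37 with Napsa to 0.68 with Slc34a2. Pairs of other members were at 0.73 or more. The spread of correlations over all genes was not counted. The genes most like the set over the 40 libraries, of 14636 ranked, were Gsap (mean correlation 0.937), Cxcl15 (0.933), Rnase4 (0.933), Tmbim6 (0.928) and Scd1 (0.928). Without tips their mean correlations were 0.851, 0.867, 0.854, 0.822 and 0.832. For single members the nearest non-members were Mlc1 and Paqr8 for Sftpa1 (0.968 and 0.953), Tmem243 and Ctsh for Sftpb (0.971 and 0.961), Lgi3 and Dram1 for Sftpc (0.986 and 0.973) and Lcn2 and Cxcl15 for Sftpd (0.971 and 0.969). They were Rnase4 and Cxcl15 for Abca3 (0.978 and 0.966), Cxcl15 and Gm43085 for Lamp3 (0.978 and 0.973), Gsap and Cxcl15 for Slc34a2 (0.961 for both), Aqp5 and Gprc5a for Napsa (0.953 and 0.945) and Gsap and Cxcl15 for Lpcat1 (0.945 and 0.943). Without tips the correlations of these nearest genes ran from 0.715 (Lgi3 with Sftpc) to 0.962 (Lcn2 with Sftpd). Libraries of a table may share their making, so the correlations are descriptions and carry no p.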

How the data were processed

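The authors deposited 5 tables of TPM. RSEM, Bowtie2 and the build mm10 are named in the submitters' processing notes. Versions, strand setting and annotation are not given in the sources used here. Libraries came from TRIzol RNA with an mRNA kit and Illumina sequencing, per the labels' protocols. Of the columns, 40 matched a sample by title and 1 did not and was not used.

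Values were used as log2(TPM + 1), for genes with at least 1 TPM in at least 2 libraries of a fit. Contrasts used limma 3.58.1 in R 4.3.3 (lmFit, eBayes with trend), two-sided, with Benjamini-Hochberg adjustment over all genes kept and a threshold of 0.05, and were tested on simulated data. Slopes are per 21 days of culture, 4.5 days of start stage or 3 days of tip stage. The fit of pieces had terms for size, up or down, and left or right. Single libraries were counted at a log2 difference of at least 1 with at least 5 TPM in the higher. Correlations, motif counts and figures used Python 3.11.15 with numpy 2.4.6, pandas 2.3.3 and matplotlib 3.10.9.

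The members and gene lists were chosen with earlier results of these data known. The rule for named genes was all 9 members in each comparison and, of the other listed genes called, at most the 4 with the largest change per list and contrast. The text does not name every listed gene that this rule allows. Alternatives were a pseudocount of 0.1 TPM, no filter, median-ratio rescaling, 2 groups only, a replicate block, early organoids only and leaving out each library.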

Additional observations from a re-analysis of the deposited data

Results flagged for a closer look

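In groups of 4 or 10 libraries, 34 sets of values of 1 member were searched by Dixon's criterion for a library far from the others. Of these, 4 stood out. The criterion flags about 1 in 20 sets of normally distributed replicates. The libraries of a group here differ in stage, day or piece, so that rate may not hold. Napsa was at 165.94 TPM in the up-half, against 325.62 to 336.99 TPM in the other 3 half-pieces. Sftpb was at 7034.93 TPM in the E10.5 organoid of day 18, against 1306.14 to 3779.35 TPM in the other 9 organoids. Sftpa1 was at 10.06 TPM in the E12.5 tip, against 21.63 to 22.92 TPM in the other 3 tips. Slc34a2 was at 0.08 TPM in the E10.5 tip, with the other 3 tips listed at 0. With 3 values at 0 any value above 0 is flagged, and nothing can be read from the difference.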

How the results depend on the processing

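The alternative values are changes of single members and counts of genes or members. A member's change was included only where its unadjusted limma p in the main fit was under 0.05. Other member changes were not checked for reversal. A change was taken as the same if it kept its direction and side of the threshold. A count was taken as the same if it was equal, 0 against 0 included, or within a fixed ratio of the main count. By these rules all 216 alternative values of organoids against tips were the same, early organoids only included. Of 1207 alternative values in all, 1020 were the same, and none of the included changes of a single member reversed. Elsewhere the cause of a change was not tested. With the replicate block, the genes called were 143 for ALL-FGF10 against ALL (271 without it), 48 for ALL-MTG against ALL (76), 68 for ALL-VC against ALL (119) and 45 between ALL-MTG and ALL-VC (81), and 1 member, Napsa, was called lower in ALL-VC than in ALL (adjusted p = 0.049), while Lamp3 was lost between ALL-FGF10 and ALL-MTG (adjusted p = 0.0639). Deviations of same-numbered libraries had correlations of -0.0702 to 0.1135, so no strong shared effect of the number was seen. With 2 libraries a group, this cannot exclude that a number marks a shared animal, culture or day. With 2 groups only, calls were 166, 11, 51 and 18 in these 4 contrasts and 2158 for ALL-FGF10 against ALL-VC (565). A pseudocount of 0.1 gave 177 for ALL-FGF10 against ALL. No filter gave 7 for ALL-MTG against ALL, 27 for ALL-VC against ALL, 22 between ALL-MTG and ALL-VC, and 2 members higher, in place of 4, for ALL-FGF10 against ALL-MTG. Rescaling gave 199 for ALL-VC against ALL, where it moved the median of all genes by -0.18, and 61.2% of the calls of ALL-FGF10 against ALL-VC were then higher, against 50.8%. Tip stage gave 25 calls with a pseudocount of 0.1 and 335 without a filter (123), and Sftpc, the 1 member called, was lost (0) in both and after rescaling. Start stage gave 3 without a filter (9). For culture day, Lpcat1 was lost (0) without a filter and after rescaling. For 2C+MTG against 2C, 0 members were lower after rescaling, in place of 3.

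Leaving out each library gave these ranges of genes called: 9 to 1149 for ALL-FGF10 against ALL, 18 to 191 for ALL-MTG against ALL, 8 to 1309 for ALL-VC against ALL, 19 to 838 for ALL-FGF10 against ALL-MTG, 15 to 966 for ALL-FGF10 against ALL-VC, 6 to 204 for ALL-MTG against ALL-VC, 430 to 1825 for culture day, 2 to 10 for start stage, 14 to 120 for tip stage, 0 to 6 for quarter-pieces against half-pieces, and 0 to 1 for up against down and for left against right. Members called higher were 0 to 5 for ALL-FGF10 against ALL-MTG, 0 to 3 for ALL-FGF10 against ALL-VC and 0 to 1 for tip stage. Members called lower were 0 to 2 for ALL-MTG against ALL, and 0 to 1 for ALL-VC against ALL, between ALL-MTG and ALL-VC and for culture day. A lone sample left in a group was assumed to vary like the others. Depth is unknown, so no limit can be set for genes listed at 0.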
